A study of Mus musculus with 4 samples.

Results

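A group of 5 genes was followed across the libraries, out of 32285 genes in the files: Phpt1, Nutf2-ps1, Wdr89, Bloc1s1 and Myl10. They were chosen by symbol because their summed levels were low in both single mutants and not in the double mutant, so their library levels and the ratios between libraries are a description and support nothing. Levels within marker gates are parts of the same sums, so their direction is a description too. The choice did not use how even the levels were over cells, how they differed between female and male cells of a library, or the sequences the genes share with others. The study profiled LSK cells (Lin-Sca-1+Kit+), the gate that holds the blood stem and early progenitor cells, from mouse bone marrow enriched with CD117 beads. Each of the 4 libraries pooled 5 mice aged 8 to 12 weeks. All 4 genotypes carried Vav1-iCre/+, a Cre recombinase driven by the Vav1 promoter in blood cells, and this alone was the control. Ikk2CA carried Ikk2-CA flox/+, a constitutively active Ikk2 in the Rosa26 locus, Jak2V617F carried Jak2 V617F flox/+, the activated Jak2 of myeloproliferative disease, and the double mutant carried both. Per the design text the mice also descended from an NF-κB EGFP reporter line on an FVB background, whereas the Cre line is B6.Cg. With 1 pooled library per genotype, genotype cannot be told apart from the pool, the animals in it, or the preparation, and no test between genotypes was possible.

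The genes have unrelated roles. Phpt1 is a phosphatase that removes phosphate from histidine residues of proteins. Nutf2-ps1 is a copy of Nutf2 that lacks introns. Nutf2 itself encodes NTF2, which carries Ran-GDP into the nucleus so that the Ran cycle of nuclear import and export can go on. Wdr89 encodes a WD-repeat protein. Bloc1s1 encodes a subunit shared by BLOC-1, which sorts cargo to lysosome-related organelles, and BORC, which positions lysosomes. Myl10 encodes a myosin regulatory light chain, first described in precursor lymphocytes.

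Nutf2-ps1 is shown first because its sequence bears on what its count means. In GENCODE M21 (GRCm38, the assembly of mm10) it lies at chr19:53588168-53589068 on the minus strand as 1 exon, while the Nutf2 transcript has 5 exons on chromosome 8. The coding stretches of both are 384 bases long and differ at 0 positions. No base is therefore in capitals in the line that follows, which gives bases 1 to 300 of the stretch, from the start codon, as they stand in both genes.
Nutf2-ps1 and Nutf2: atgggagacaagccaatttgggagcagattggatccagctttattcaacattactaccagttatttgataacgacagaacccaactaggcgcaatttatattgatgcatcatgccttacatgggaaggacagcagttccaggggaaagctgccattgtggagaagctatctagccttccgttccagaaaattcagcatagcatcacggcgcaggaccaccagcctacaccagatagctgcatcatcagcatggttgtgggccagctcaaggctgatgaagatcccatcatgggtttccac
The identity went beyond the coding stretch to a run of 868 bases, which held every base of the Nutf2 transcript after its stop codon. Nutf2-ps1 went on for 25 more bases, of which 21 were A. A read from inside the run carries no base that separates the genes, so the Nutf2-ps1 count is a count of reads placed there and may hold RNA of either gene.

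The files gave UMIs (unique molecular identifiers, each counting 1 captured RNA molecule). After the authors' filter of 500 to 7500 genes and under 10% mitochondrial UMIs, 37344 of 41674 barcodes were kept, 5268 to 14156 per library. The libraries held 102362297 to 197836491 UMIs, and the median cell had 10606 UMIs in control, 17726 in Ikk2CA, 11106.5 in Jak2V617F and 24915 in the double mutant. Any pair of libraries shared 12 to 60 barcodes, at most 0.608% of either. Kit was at 87.6 to 175 and Ly6a, the gene of Sca-1, at 106 to 233 CPM (UMIs scaled to the same total in each library), and Cd3e was at or under 0.137 CPM. Of 6 stromal or endothelial markers at most 1 reached 1 CPM, whereas B cell markers summed to 1078 CPM in Ikk2CA and 76.6 to 230.1 CPM elsewhere. Ikbkb, the mouse gene of Ikk2, was at 51.5 to 67.3 CPM and Jak2 at 11.6 to 19.8 CPM, and counts at a gene's 3′ end do not check either allele. The pools differed in sex: among cells with at least 5000 UMIs, 41.5% had no Xist UMI in control, 75.7% in Ikk2CA, 99.6% in Jak2V617F and 70.9% in the double mutant.

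Phpt1 (chr2:25573430-25575224, minus strand) had 85.9 CPM in control, against 47.5 in Ikk2CA and 43.9 in Jak2V617F, and 102 CPM with both alleles. Both single mutants lay well below control, with ratios of 0.553 (95% counting interval 0.537 to 0.569) and 0.511 (0.495 to 0.526), and the double mutant stood above control at 1.19 times (1.16 to 1.22). Nutf2-ps1 had 62.8 CPM in control, against 31.8 in Ikk2CA and 31.9 in Jak2V617F, and 69.6 CPM with both alleles. The single mutants were equal within counting error for this gene, with ratios of 0.507 (0.489 to 0.525) and 0.508 (0.490 to 0.527). Its parent Nutf2 was listed at 0.723, 1.46, 1.49 and 1.44 CPM in the same order, so that nearly all reads of the pair stood under the copy and control was the lowest library for the parent. The summed count of the pair was thus nearly all placed at Nutf2-ps1 in every library. Because the run is identical, this does not show which gene the RNA came from.

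Wdr89 (chr12:75630596-75669537, minus strand) had 274 CPM in control, against 118 in Ikk2CA and 146 in Jak2V617F, and 194 CPM with both alleles. It was low in both single mutants, and it went against the description of genes low in them only: the double mutant was also below control, at 0.710 times (0.698 to 0.721). Bloc1s1 (chr10:128917882-128924035, minus strand) had 84.8 CPM in control, against 62.7 in Ikk2CA and 43.4 in Jak2V617F, and 97.7 CPM with both alleles. Its ratio in Ikk2CA was 0.739 (0.719 to 0.760), less low than in Jak2V617F at 0.511 (0.496 to 0.527). Myl10 (chr5:136693146-136701094, plus strand) had 123 CPM in control, against 58.7 in Ikk2CA and 67.4 in Jak2V617F, and 106.9 CPM with both alleles. Its double mutant ratio was 0.866 (0.846 to 0.887), a direction that depends on the scaling: the log2 ratio was -0.21 on the library total, 0.04 with TMM scaling and 0.11 with size factors from DESeq2.

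**Figure D1:**
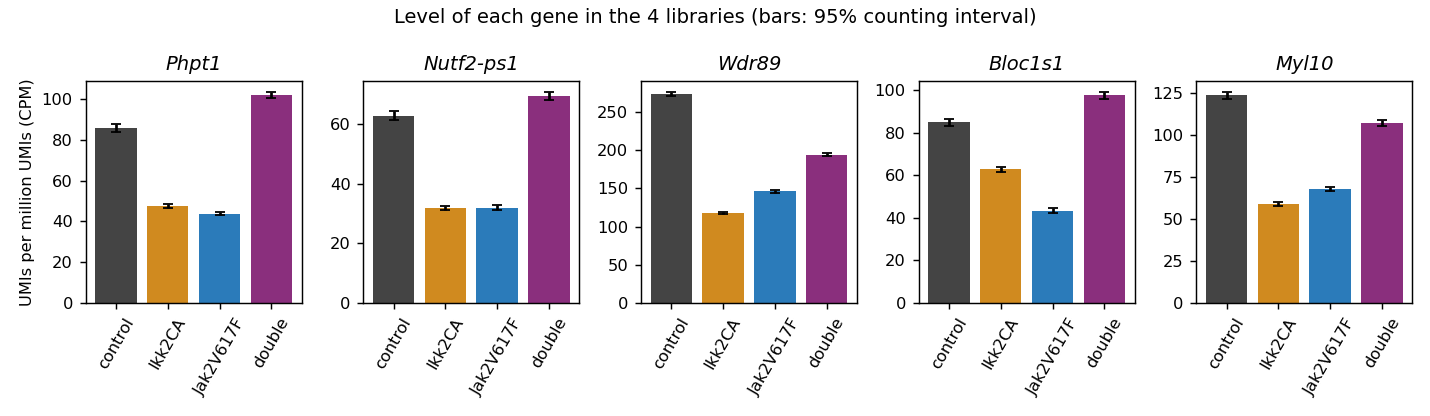
Level of each gene in CPM (vertical axis, from 0) in the 4 libraries, with 95% exact Poisson intervals that cover counting error only. Both single mutants lie below control for all 5 genes, and in the double mutant Wdr89 and Myl10 remain below control on this scaling.

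The median of the 5 log2 ratios to control was -0.98 in Ikk2CA, -0.97 in Jak2V617F and 0.15 in the double mutant. The median gene of the same comparisons was at -0.23, -0.01 and -0.24, so relative to it the 5 genes stood at -0.75, -0.96 and 0.38. In Ikk2CA 4 of the 5 were at most 1/1.5 of control, where 16.7% of all genes tested were. In Jak2V617F 5 of 5 were, where 1.37% of genes were, and 0 of 5 were at least 1.5 times control, where 1.02% were. In the double mutant 0 of 5 were at most 1/1.5 of control, where 15.9% of genes were, and 0 of 5 reached 1.5 times control, which 2.24% did. The double mutant was at least 1.5 times Ikk2CA for 5 of 5 (1.68% of genes) and at least 1.5 times Jak2V617F for 4 of 5 (1.65% of genes), the exception being Wdr89 at 1.33 times. These shares are given as background and nothing is read from them, because the same contrasts chose the genes. All comparisons with control share 1 control library, and the departures that follow use all 4 libraries.

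Departure from additivity was taken as the double mutant's log2 ratio to control less the log2 ratios of Ikk2CA and Jak2V617F, so 0 means that the effects of the alleles add on the log2 scale. It was 2.10 for Nutf2-ps1, 2.07 for Phpt1, 1.74 for Myl10, 1.62 for Wdr89 and 1.61 for Bloc1s1. Among 8533 genes they ranked 12, 13, 17, 22 and 23 from the top, with the median gene at 0.02 and 0.762% of genes at 1 or more.

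The pattern was rare at the level of libraries. Both single mutants were at most 1/1.5 of control for 0.679% of 8536 genes, and 11 genes (0.129%) also had a double mutant level above 0.8 of control. Those 11 held Nutf2-ps1, Phpt1 and Myl10, but not Wdr89, whose double mutant level was under that limit, nor Bloc1s1, whose Ikk2CA level was above 1/1.5. The other 8 included Cebpa, a transcription factor of the myeloid line, at 33.4, 20.6, 19.1 and 27.4 CPM. Eno1b, an intronless copy of the enolase gene Eno1, was at 14.996, 5.24, 4.87 and 14.9 CPM and was chosen after its values were seen, as was Commd5 at 10.9, 4.41, 4.19 and 9.26 CPM. By distance over the 3 log2 ratios to control, the named genes of at least 20 CPM nearest to the median of the 5 included Cebpa (distance 0.542), Ftl1-ps1 (0.630), Ms4a3 (0.659), Polr3gl, Cryzl2, Rnaset2b and Anxa4 (0.737 to 0.781). Each distance is over 3 ratios from the same 4 libraries.

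To ask whether the shift was uniform over cells, the cells with at least 5000 UMIs were sorted into gates by fixed marker lists of 6 genes, after thinning each cell to 5000 UMIs. A gate is the range of cells with at least 2 markers of 1 list and more of that list than of any other, and is not a cell type. Between 3.48% and 69.0% of the cells in the gates compared had exactly 2 markers of their list, and the median cell had at most 2 markers of any other list. The gate of the plasmacytoid dendritic list held more Dntt (784 CPM) than Siglech (9.54 CPM) in control, so it is called here the plasmacytoid-list gate and given no cell type. The gates held unlike cells in the libraries. In Ikk2CA that gate was led by Ly6d (1508 CPM, against 141 in control) and its own 6 markers summed to 3343 CPM, against 933 in control. In the HSC gate megakaryocyte markers summed to 87.7 CPM in control, 549.6 in Ikk2CA, 96.3 in Jak2V617F and 534 in the double mutant, where HSC markers summed to 494 CPM. Ratios within a gate therefore compare ranges of marker detection, and the part of these differences in them was not tested. The 6 named marker gates and the cells in no gate had at least 50 cells in every library. Gate shares differed between libraries, for example 1.98% of control cells and 14.0% of Ikk2CA cells in the B cell gate, and 13.5% and 3.82% in the HSC gate.

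Wdr89 and Bloc1s1 varied least over the gates in Ikk2CA and in the double mutant. The Wdr89 ratio to control ran from 0.401 to 0.464 in Ikk2CA, from 0.510 to 0.611 in Jak2V617F and from 0.6699 to 0.787 in the double mutant. Bloc1s1 ran from 0.694 to 0.835, from 0.478 to 0.532 and from 1.11 to 1.19, so the gates gave the same order of libraries throughout. Phpt1 ran from 0.512 to 0.667, from 0.482 to 0.554 and from 1.03 to 1.247. Nutf2-ps1 ran from 0.391 to 0.509, from 0.424 to 0.557 and from 0.829 to 1.13, with the double mutant below control in 3 of 7 gates and no interval wholly under 1. For these 4 genes both single mutants were below control in 7 of 7 gates, and the double mutant was above both of them in 7 of 7. Each interval of the single mutants lay below 1 for these 4 genes. Of 5985 genes of at least 20 CPM in control, 44.6% were below control in all gates in Ikk2CA, 18.7% in Jak2V617F and 11.9% in both, and 0.685% also had the double mutant above both throughout. Nothing is read from these shares, since the gates are parts of the libraries that chose the genes.

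Myl10 was uneven over the gates. Its level in control was 290.3 CPM in the B cell gate, 209 CPM in the lymphoid-primed gate, 188 CPM in the HSC gate and 179 CPM in the plasmacytoid-list gate, against 40.6 CPM in the granulocyte-monocyte gate, 36.5 CPM in the megakaryocyte gate and 10.9 CPM in the erythroid gate. In Ikk2CA its ratio to control ran from 0.219 in the granulocyte-monocyte gate to 0.996 in the lymphoid-primed gate, and in Jak2V617F from 0.464 in the plasmacytoid-list gate to 1.04 in the B cell gate. In the double mutant it was 1.60 in the HSC gate, 1.19 in the lymphoid-primed gate and 0.812 in the plasmacytoid-list gate. With at least 3 markers needed, 6 gates were left, and Myl10 in the lymphoid-primed gate of Ikk2CA was above control at 1.20 times (1.13 to 1.28). The other 4 genes were then below control in both single mutants in 6 of 6 gates. Its departure from additivity ran from 0.58 to 3.28 over the gates, against 1.85 to 2.18 for Phpt1, 1.99 to 2.28 for Nutf2-ps1, 1.51 to 1.72 for Wdr89 and 1.40 to 1.73 for Bloc1s1. The SD of the log2 ratio over gates was 0.76, 0.41 and 0.32 for Myl10 in Ikk2CA, Jak2V617F and the double mutant. That was larger than for 99.5%, 99.3% and 97.7% of the 2346 or 2347 genes with at least 50 CPM in every library. Phpt1, Nutf2-ps1 and Bloc1s1 were under 50 CPM in Jak2V617F and thus outside this set, so their ranks in it are not like for like. For the other 4 genes the SD was 0.04 to 0.18, against a median gene of the set at 0.10 to 0.11. In the double mutant that of Nutf2-ps1 was larger than for 83.2% of genes and that of Bloc1s1 than for 2.39%. In Ikk2CA that of Phpt1 was larger than for 68.7% of genes. The Ikk2CA interval held the ratio over all kept cells in 4 of 7 gates for Nutf2-ps1 and 5 of 7 for Phpt1 and Wdr89. It did so in 7 of 7 for Bloc1s1 and 0 of 7 for Myl10.

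**Figure D2:**
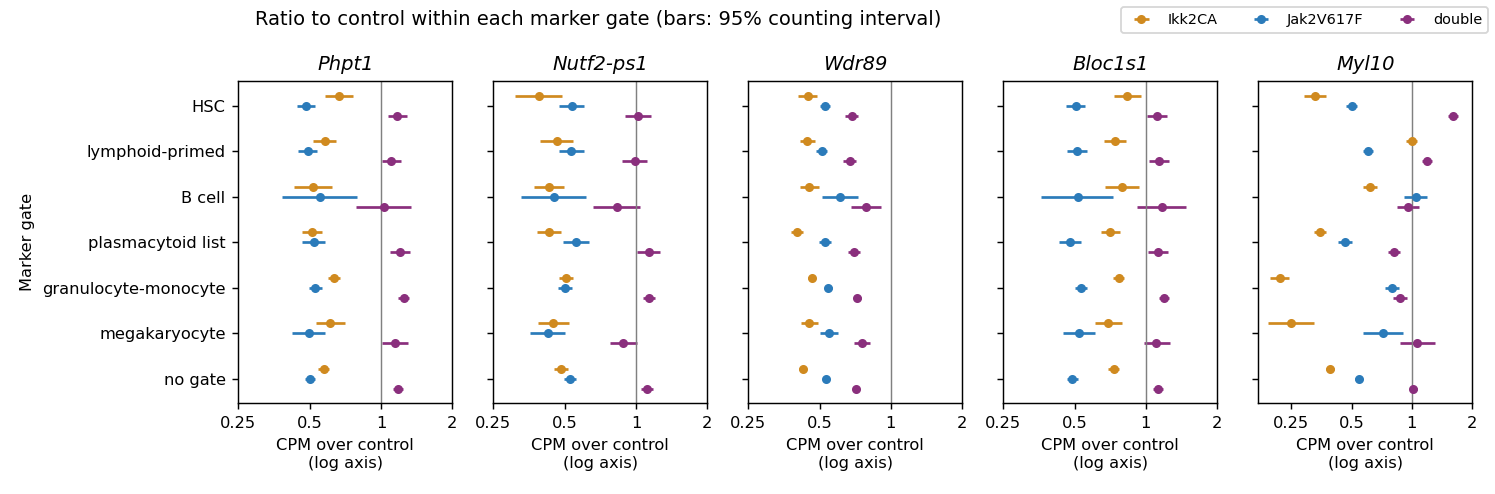
Ratio of CPM to control (horizontal log axis) for each gene in the 6 marker gates and in cells of no gate (vertical axis), with 95% counting intervals. Both single mutants lie below 1 in every gate for Phpt1, Nutf2-ps1, Wdr89 and Bloc1s1, at 0.391 to 0.835, whereas Myl10 runs from 0.219 to 0.996 in Ikk2CA.

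The distribution of UMIs over cells gave the same division. In cells thinned to 5000 UMIs, Wdr89 had a UMI in 75.7% of control cells, 44.2% of Ikk2CA cells, 52.4% of Jak2V617F cells and 61.4% of double mutant cells. Without thinning these shares were 89.6%, 82.4%, 77.0% and 95.3% on cells of unequal depth. The thinned shares were 35.3%, 21.5%, 20.1% and 40.6% for Phpt1, 24.6%, 13.4%, 13.8% and 26.6% for Nutf2-ps1, and 35.0%, 26.7%, 19.7% and 38.8% for Bloc1s1. Unthinned they were 60.2%, 55.9%, 40.6% and 86.5% for Phpt1, 46.2%, 42.1%, 30.7% and 72.3% for Nutf2-ps1, and 60.1%, 65.7%, 40.3% and 85.6% for Bloc1s1. Thinning matters here: unthinned, Bloc1s1 was found in more Ikk2CA cells than control cells.

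For these 4 genes the share of cells without a UMI was within 0.604 percentage points of a Poisson distribution of the same mean in every library, and the variance over the mean was 1.00 to 1.06. At this depth no separate group of cells without these transcripts was detectable in any library. Myl10 had a UMI in 35.1%, 16.6%, 25.6% and 28.6% of thinned cells (49.1%, 30.1%, 42.7% and 54.7% unthinned). Cells without a Myl10 UMI were in excess of the Poisson share by 17.2, 12.7, 5.28 and 23.5 percentage points, and its variance over the mean was 2.75, 3.57, 1.64 and 4.24. In the control erythroid gate, where Myl10 was lowest among the gates above, 6.03% of 116 thinned cells had a Myl10 UMI, against 44.9% in the lymphoid-primed gate, with median depths of 23479.5 and 10650.5 UMIs before thinning. The erythroid gate had fewer than 50 cells in the double mutant and was left out of the ratios.

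**Figure D3:**
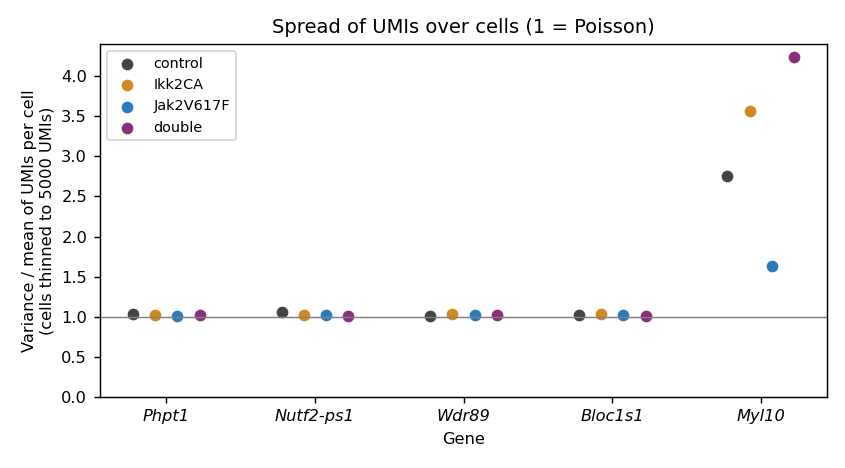
Variance divided by the mean of UMIs per cell (vertical axis) for each gene (horizontal axis) and library, in cells thinned to 5000 UMIs, where 1 is the value of a Poisson distribution. The 4 other genes lie at 1.00 to 1.06 in all libraries and Myl10 lies at 1.64 to 4.24.

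Myl10 differed between Xist-only and Y-only cells, which the choice of genes did not use. Xist-only cells had Xist UMIs and no Y-linked UMI, as female cells do, and Y-only cells had a Y-linked UMI and no Xist UMI. Myl10 was at 169.6 CPM in 3574 Xist-only and 69.7 CPM in 2405 Y-only cells of control, a ratio of 2.44 (2.32 to 2.55). It was at 129.6 CPM in 1733 Xist-only and 39.9 CPM in 6004 Y-only cells of Ikk2CA (ratio 3.25, 3.13 to 3.39), and at 359 CPM in 1159 Xist-only and 35.7 CPM in 3265 Y-only cells of the double mutant (ratio 10.1, 9.68 to 10.5). Jak2V617F had 7 Xist-only cells, too few to compare, and 9895 Y-only cells at 66.6 CPM. The Xist-only level was thus above the Y-only level in each of the 3 libraries that held both.

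Set against other genes, this gap was wide. In control only Tsix, the antisense partner of Xist, had a higher ratio of Xist-only to Y-only cells than Myl10 among 5982 genes of at least 20 CPM that had UMIs in both classes. In Ikk2CA 5 neutrophil genes (Camp, Lcn2, Ngp, S100a8 and S100a9) had a higher ratio among 5302 genes, and in the double mutant the 3 globin genes Hba-a1, Hba-a2 and Hbb-bs among 5283. Xist-only and Y-only cells of a pool come from different mice, so sex and animal cannot be told apart within a library. The gap was present inside each gate of control: 293 against 67.4 CPM in the HSC gate, 280.3 against 147 CPM in the lymphoid-primed gate, 236 against 112 CPM in the plasmacytoid-list gate, 304 against 253 CPM in the B cell gate, 53.8 against 17.2 CPM in the granulocyte-monocyte gate and 62.0 against 11.3 CPM in the megakaryocyte gate. In the HSC gate of the double mutant it was 675 against 64.3 CPM.

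Within Y-only cells alone Myl10 lost the pattern that chose it. Its ratios to control were 0.572 in Ikk2CA, 0.956 in Jak2V617F and 0.512 in the double mutant, and the departure from additivity was -0.10 in place of 1.74. In Xist-only cells its ratio was 0.764 in Ikk2CA and 2.12 in the double mutant. The other 4 genes kept their values in Y-only cells, with departures of 2.06 for Phpt1, 2.16 for Nutf2-ps1, 1.60 for Wdr89 and 1.62 for Bloc1s1. Their ratios of Xist-only to Y-only cells lay between 0.955 and 1.14 in control, Ikk2CA and the double mutant. The interval left out 1 for Nutf2-ps1 in Ikk2CA at 1.14 (1.07 to 1.22) and for Bloc1s1 in the double mutant at 0.955 (0.914 to 0.997).

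**Figure D4:**
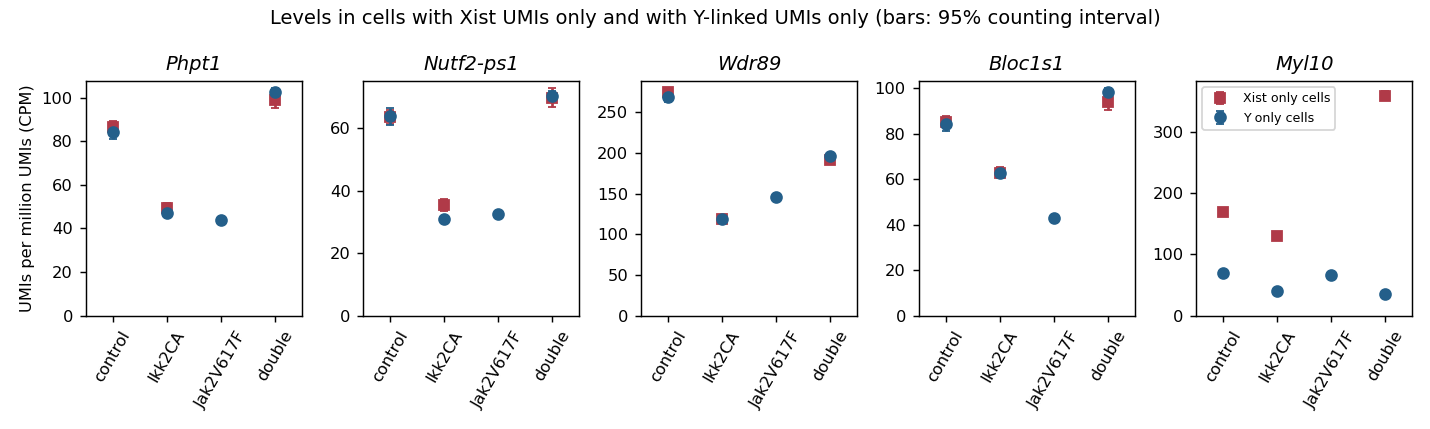
CPM (vertical axis, from 0) of each gene in cells with Xist UMIs only and in cells with Y-linked UMIs only, by library, with 95% counting intervals, and without the 7 Xist-only cells of Jak2V617F. The classes lie close together for 4 genes (ratios of 0.955 to 1.14), while Myl10 reaches 359 CPM in Xist-only cells of the double mutant and 35.7 CPM in its Y-only cells.

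The other 4 genes were below control in both single mutants at each depth and in cycling and other cells. Over 4 equal classes of cells by UMIs within each library, Wdr89 was at 0.389 to 0.450 of control in Ikk2CA, 0.512 to 0.555 in Jak2V617F and 0.675 to 0.735 in the double mutant. Phpt1 was at 0.540 to 0.578, 0.505 to 0.536 and 1.10 to 1.23, and Bloc1s1 at 0.717 to 0.763, 0.493 to 0.541 and 1.01 to 1.19. Inside control Nutf2-ps1 was at 45.9 CPM in the shallowest and 72.3 CPM in the deepest class, and Myl10 at 185 and 78.5 CPM. The Nutf2-ps1 ratios were wider, at 0.468 to 0.599, 0.431 to 0.610 and 0.890 to 1.33. In 6 windows of equal depth, chosen after the values were seen, all 4 genes were below control in both single mutants in 6 of 6. In those windows the double mutant was below control in 2 of 6 for Phpt1 and Bloc1s1 and 3 of 6 for Nutf2-ps1. For Phpt1 and Bloc1s1 the windows below control held 93 and 82 double mutant cells. The lowest ratio of Nutf2-ps1 was 0.627, in a window of 1029 double mutant cells. With cycling cells taken as those with at least 2 of 6 cycling markers, Nutf2-ps1 in Jak2V617F was at 0.477 in cycling and 0.535 in other cells, and Wdr89 in Ikk2CA at 0.457 and 0.417. Myl10 was at 0.640 in cycling and 0.430 in other cells in Ikk2CA, and at 0.719 and 0.498 in Jak2V617F.

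Sequence at the 3′ end was shared with another gene for 3 of the 5 genes, a property looked at after the values were seen. For each gene, windows of 90 bases were taken in the last 400 bases of its GENCODE transcripts and looked up in the transcripts of all other genes. For Nutf2-ps1 92.0% of windows were found in Nutf2. For Phpt1 44.2% were found in Mamdc4, and for Bloc1s1 41.7% in Rdh5, each of which overlaps it on the same strand. Wdr89 and Myl10 shared 0 windows. Mamdc4 was at 0.511 to 0.752 CPM and Rdh5 at 0.717 to 1.19 CPM, low in every library.

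Of 8533 genes 15.5% shared any window and 1.39% at least 50% of them. Among the 8 genes of the same library pattern that are not among the 5, 7 shared a window and 6 at least 50%. A departure of 1 or more was found for 15.1% of 119 genes with at least 50% shared windows, for 0.665% of 1203 genes with fewer and for 0.541% of 7211 genes with none. A departure of -1 or less was as frequent in the first class, at 15.1%, against 1.91% in each of the others, so the classes differed in both directions. Eno1, the partner of Eno1b, was at 52.9, 96.0, 85.8 and 70.4 CPM, lowest in control, as Nutf2 was. The other partners of the 5 genes were not: Mamdc4 was highest in control (0.752 CPM) and Rdh5 lowest in the double mutant (0.717 CPM). The part of shared sequence in the values of Nutf2-ps1, Phpt1 and Bloc1s1 was not tested.

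**Figure D5:**
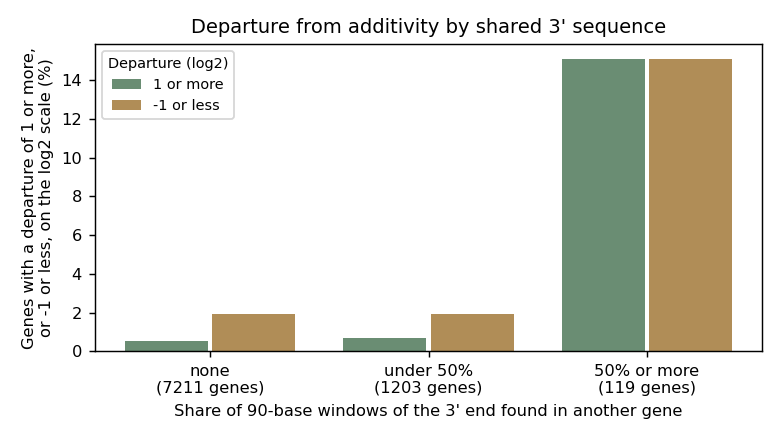
Percentage of genes with a departure from additivity of 1 or more, and of -1 or less (bars; vertical axis, from 0), by the share of 90-base windows of a gene's 3′ end that also occur in another gene's transcripts (horizontal axis). Genes with 50% or more shared windows stood at 15.1% in both directions, and genes with none at 0.541% and 1.91%.

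Of 105 annotated genes within 250 kb of the 5 genes, 29 were tested. Of these 7 were at most 1/1.5 of control in Ikk2CA (16.7% of all genes were), 0 in Jak2V617F (1.37%) and 0 in both (0.679%), counts too few to set apart from the share over all genes, with medians of -0.34, -0.07 and -0.29 in Ikk2CA, Jak2V617F and the double mutant. Edf1 and Rabl6 flank Phpt1 and had log2 ratios of 0.41 and -0.04 in Ikk2CA and 0.05 and 0.26 in Jak2V617F. Among the neighbours under the 10 CPM filter, Fcna near Phpt1, the gene of a ficolin, was at 2.03, 0.268, 0.793 and 0.837 CPM, below control in both single mutants and in the double mutant, and was named after its values were seen. Cd63, a tetraspanin of lysosome-related organelles, lies 5060 bases from Bloc1s1 and was at 220.2, 89.98, 229 and 176 CPM, low in Ikk2CA and not in Jak2V617F. Dusp5 and Smc3 flank Nutf2-ps1 (log2 ratios of 0.16 and 0.13 in Jak2V617F), Ppp2r5e and Sgpp1 flank Wdr89 (-0.11 and 0.07), and Cux1 and Ift22 flank Myl10 (-0.24 and -0.07).

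In 4 lists of related genes, 0 other tested genes were at most 1/1.5 of control in both single mutants. Of all genes 0.679% were, so lists of this size hold few or none. By single limits, 16.7% of all genes were at most 1/1.5 of control in Ikk2CA and 4% at least 1.5 times. The same shares in Jak2V617F were 1.37% and 1.02%. Of 12 other BLOC-1 and BORC subunits tested, 1 was at most 1/1.5 of control in Ikk2CA (Bloc1s3, 11.9 against 7.06 CPM) and 1 at least 1.5 times (Bloc1s2, 74.0 against 112 CPM), and 0 passed either limit in Jak2V617F. Of 9 other Ran cycle genes, 1 was at least 1.5 times control in Ikk2CA (the importin Kpna2, 10.6 against 17.0 CPM) and 0 passed a limit in Jak2V617F. The import receptor Kpnb1 was at 87.3, 59.5, 93.4 and 66.7 CPM. Of 4 other myosin light chains tested, 1 was at least 1.5 times control in Ikk2CA (Myl4, 7.14 against 27.0 CPM), and Myl12b was at 375, 328, 354 and 382 CPM. Of 4 other genes of protein histidine phosphorylation tested, 0 passed a limit in either single mutant, the nucleoside diphosphate kinase Nme2 having log2 ratios of 0.28 and 0.29 and Kcnn4, a potassium channel regulated by histidine phosphorylation, -0.32 and -0.10. The median log2 ratios of the other tested genes of each list were -0.26 to 0.02 in Ikk2CA and -0.13 to 0.15 in Jak2V617F.

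A list of RNA quality and processing signs held 10 genes. In Ikk2CA 1 was at most 1/1.5 of control and 4 at least 1.5 times, where 16.7% and 4% of all genes were. In Jak2V617F 1 and 3 were, against 1.37% and 1.02%, and in the double mutant 2 and 2, against 15.9% and 2.24%. Xist was the 1 gene low in both single mutants. Fos and Jun were named after their values were seen. Fos was at 55.7, 411, 176 and 56.4 CPM and Jun at 228, 469, 267 and 154 CPM, so both immediate early genes were above control in the single mutants, and Jun was below it in the double mutant. Hbb-bs, a globin gene, was at 12.4, 444, 69.9 and 56.99 CPM. Their part in the values of the 5 genes was not tested. In barcodes that the filter removed, Phpt1 was at 0.444 of control in both single mutants and 1.51 in the double mutant, and Wdr89 at 0.362, 0.565 and 0.890.

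The bases before the RefSeq start (GRCm38.p6) are shown for Wdr89, Bloc1s1 and Myl10, to set the windows side by side. In thinned cells the UMIs of Wdr89 and Bloc1s1 were close to a Poisson distribution and those of Myl10 were not. That does not make Wdr89 even over all cells: its Ikk2CA interval held the ratio over all kept cells in 5 of 7 gates. Its Jak2V617F and double mutant intervals did so in 7 of 7. RefSeq windows were found for 4 of the 5 genes, and the Phpt1 window lies in its first exon in GENCODE and is not printed. Myl10 had 3 RefSeq starts, and only the window shown was searched. The Bloc1s1 window lies within the gene's GENCODE bounds, upstream of the RefSeq start but not of the outermost GENCODE start, and overlaps 0 exon bases. Capitals mark matches to the motifs searched.
Wdr89, chr12:75669538-75669787, minus strand: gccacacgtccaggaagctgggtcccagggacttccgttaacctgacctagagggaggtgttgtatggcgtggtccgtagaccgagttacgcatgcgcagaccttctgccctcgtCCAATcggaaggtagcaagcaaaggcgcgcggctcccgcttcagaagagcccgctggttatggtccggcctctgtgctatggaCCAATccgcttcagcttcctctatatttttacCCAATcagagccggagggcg
Bloc1s1, chr10:128923525-128923774, minus strand: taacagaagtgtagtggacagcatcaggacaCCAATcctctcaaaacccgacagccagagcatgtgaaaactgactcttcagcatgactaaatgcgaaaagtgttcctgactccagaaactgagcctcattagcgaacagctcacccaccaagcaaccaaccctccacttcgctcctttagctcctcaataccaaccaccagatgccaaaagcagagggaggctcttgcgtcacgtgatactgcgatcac
Myl10, chr5:136692896-136693145, plus strand: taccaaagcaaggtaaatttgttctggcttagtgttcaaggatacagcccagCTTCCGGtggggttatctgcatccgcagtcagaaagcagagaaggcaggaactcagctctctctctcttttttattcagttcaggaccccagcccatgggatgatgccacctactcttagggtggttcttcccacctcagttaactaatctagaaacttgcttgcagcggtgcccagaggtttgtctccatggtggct
On both strands, CCAAT was found 3 times for Wdr89, 3 times for Phpt1 and 1 time for Bloc1s1, and in 33.8% of 32851 windows of 250 bases. The ETS motif CCGGAAG was found 1 time for Myl10 and in 6.91% of windows. The STAT motif TTCNNNGAA (7.02% of windows), the NF-κB motif searched by its consensus (7.25%), TGACGTCA (1.55%), the NRF1 motif searched by its consensus (4.98%), AANATGGCG (1.12%), TATAAA (12.4%) and GGGCGG (32.7%) were found in 0 of 4. Wdr89 had 18 CG dinucleotides, Phpt1 10, Bloc1s1 7 and Myl10 3, against a median window of 6. A match describes letters only, and the matches of these motifs do not overlap in the sequences shown.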

How the data were processed

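The deposited values were counts: per the file headers each matrix held whole UMIs per gene and barcode, written by Cell Ranger 4.0.0, whereas the design text names Cell Ranger 3.0.1. The submitters' processing notes name mm10 and Seurat 4.0.0. Read length and annotation version are not given in the sources used here. The authors' cell filter was applied. UMIs of kept cells were summed per gene and library and scaled to the library total (CPM), and a gene counted as tested where 1 of the libraries compared reached 10 CPM. Intervals are 95% exact Poisson for levels, exact conditional binomial for ratios and Clopper-Pearson for shares, and cover counting error only, since each genotype had 1 library. No doublet caller was run. In control 56.7% of cells of at least 5000 UMIs, and in the double mutant 35.3%, had 2 or more markers of more than 1 list, which related progenitors share, and leaving out the 5% of cells with most UMIs was an alternative. Cells were thinned to 5000 UMIs for gates and shares, leaving out 838, 405, 1361 and 146 cells. The members and lists were chosen with earlier results of these data known. Named genes were the 5 genes, Nutf2, the nearest tested gene on each side, the 8 nearest in the 3 ratios (1 is not reported here) and up to 2 genes of each list with the largest change in a single mutant. Scripts were tested on simulated data. Alternatives were other scalings (edgeR 4.0.16, DESeq2 1.42.0 size factors), filters and cell subsets. Python 3 with numpy, scipy and pandas was used.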

Additional observations from a re-analysis of the deposited data

Results flagged for a closer look

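For all 5 genes the log2 ratio between single libraries with and without an allele had opposite signs with and without the other allele. Genotype cannot be told apart from the pool here, and the difference was not tested. These values follow from how the genes were chosen. For Myl10 the reversal was not present in Y-only cells, where its ratios to control were 0.572 in Ikk2CA, 0.956 in Jak2V617F and 0.512 in the double mutant. Ikk2CA over control was at -0.85 for Phpt1, -0.98 for Nutf2-ps1, -1.21 for Wdr89, -0.44 for Bloc1s1 and -1.07 for Myl10. The double mutant over Jak2V617F was at 1.22, 1.12, 0.41, 1.17 and 0.66 in the same order. Jak2V617F over control was at -0.97, -0.98, -0.91, -0.97 and -0.87. The double mutant over Ikk2CA was at 1.10, 1.13, 0.72, 0.64 and 0.87.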

How the results depend on the processing

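The direction in the single mutants held for all 5 genes under the 10 alternatives run on library sums, but its size varied. The log2 ratio of Bloc1s1 in Ikk2CA ran from -0.47 to -0.16 over these alternatives. On the library total it was -0.20 relative to the median gene, so Bloc1s1 was little below a typical gene there. The Myl10 log2 ratio in Jak2V617F was as small as -0.06. The median log2 ratio in Ikk2CA (-0.98) was -0.74 with TMM factors, -0.70 with median-of-ratios factors, -0.85 in cells with no Xist UMI and -0.84 in Y-only cells, an alternative added after seeing the data. In the double mutant (0.15) it was 0.40, 0.47 and, with a total free of mitochondrial, ribosomal protein and globin genes, 0.20. The median departure (1.74) was 2.06 with thinned cells, 1.95 as a mean over cells, 1.92 with gates weighted as in control, 1.80 without the 5% of cells with most UMIs, 1.64 in cells with no Xist UMI and 1.62 in Y-only cells. The Myl10 departure was lost, at -0.11 in cells with no Xist UMI and -0.10 in Y-only cells, and that of the other 4 genes ran from 1.57 to 2.16. The count of 11 genes was 3 at 2-fold, 5 at 50 CPM or more and 88 with no CPM filter. The scalings moved the median gene in Ikk2CA from -0.23 to 0.01 and 0.04. No paired analysis was possible because each genotype had 1 library and the labels carry no replicate numbers. Counting error was small for library levels but not in the sparse windows of equal depth. The double mutant was at 0.677 to 1.32 of control for Phpt1 over these windows. Its ratios below 1 rested on 18 and 36 double mutant UMIs, and from 8000 UMIs per cell up it was at 1.27 to 1.32. Nutf2-ps1 moved with depth, at 0.627 to 1.13. It was at 0.627 in 1029 double mutant cells of 12000 to 18000 UMIs and at 1.10 in 1630 cells of 26000 to 40000.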
